A study of Schmidtea mediterranea with 40 samples.

Results

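Yolk was compared with sexually mature adults of the planarian Schmidtea mediterranea, the animals whose yolk glands make it. The comparison used 8 of the 40 RNA-Seq samples of the study, the 4 yolk samples (Y) and the 4 samples of virgin sexual adults (SX), taken by their labels. All 35262 transcripts in the deposited table were read, and the 25900 whose RPKM values summed to at least 1 over these 8 samples were tested. RPKM is reads per kilobase of transcript and per 1e6 reads, here with a TMM factor, a correction for libraries in which a few transcripts take most reads. Differences are means of log2(RPKM + 0.1) in Y minus those in SX, so a positive value is higher in Y. The added 0.1 RPKM shrinks the differences of transcripts read near 0 RPKM. Without a read in Y the difference can exceed what the reads support, since 1 read on 1 kilobase was worth 0.273 to 0.517 RPKM.

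The study staged embryogenesis by single-embryo RNA-Seq and held 10 groups of 4 samples, among them the embryonic stages S2 to S8 and intact asexual C4 adults. Each Y sample was the yolk of 1 egg capsule, opened 8 days after it was laid, in which neither a spherical nor an elongating embryo was found. Each SX sample was 1 whole hermaphrodite that had not mated, and each C4 sample 1 animal of the clonal asexual line CIW-4, which lays no capsules. The capsules came from outbred cohorts of sexual adults, and the study's methods do not state the strain of the SX animals. All animals were kept at 20 °C and fed beef liver. Cultures cut or fed intensively were given gentamicin, and the methods do not state which these were. No group carried a transgene or an experimental treatment, and polyadenylated RNA was sequenced. An SX library holds the RNA of a whole animal, so RNA of its yolk glands is mixed with that of all other organs, and at bulk resolution fewer cells of a type and less RNA per cell cannot be told apart. Whole animals or capsules were the replicates, so p-values measure the spread between these 4 and 4 individuals.

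Planarian eggs are ectolecithal, that is, yolk is not stored in the oocyte. It is made by somatic yolk glands, the vitellaria, which lie along the body below the testes, and many yolk cells are packed with the zygotes into each capsule. The embryo later swallows yolk through a temporary pharynx and lives on it. Neoblasts are the dividing stem cells of the adult and express piwi-1, and the zeta, gamma and sigma classes are neoblast subsets defined by their transcripts, of which zeta cells feed the epidermis and gamma cells the gut. The SX samples were checked against a gene of male germ cells. The transcript of spermatid elongation defective 1 (SMED30009122) was read at 328, 607, 681 and 556 RPKM in SX replicates 1 to 4 and at a mean of 0.0956 RPKM in C4.

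Transcript sequences of the assembly were not used here, and the 100-base targets of the Nanostring probes designed in the study stand for 3 of the transcripts described. They are shown because they stand for the 3 outcomes met in named genes (lower, overlapping and higher in Y), namely prog-1 (SMED30035904), a marker of epidermal progenitors that was 48.0-fold lower in Y than in SX by mean RPKM, piwi-1 (SMED30007406), whose level in Y overlapped that in SX, and gelsolin-like (SMED30014940), an actin-binding protein homolog whose transcript marks temporary embryonic tissue and was higher in Y. Capitals are not used in them, since no position within the target was measured.
prog-1: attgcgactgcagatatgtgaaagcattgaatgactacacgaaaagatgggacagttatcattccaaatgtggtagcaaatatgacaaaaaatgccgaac
piwi-1: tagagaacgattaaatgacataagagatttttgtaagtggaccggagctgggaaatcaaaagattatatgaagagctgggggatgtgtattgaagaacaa
gelsolin-like: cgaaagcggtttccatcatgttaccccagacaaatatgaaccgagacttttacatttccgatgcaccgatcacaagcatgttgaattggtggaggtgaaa

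Libraries held 9.54 to 12.52 M counted reads in Y and 12.53 to 16.24 M in SX. The TMM factor was 0.203 to 0.292 in Y and 1.71 to 1.99 in SX, a ratio of means of 7.45, so that for 1 kilobase of transcript the step from 0 to 1 read was 0.273 to 0.517 RPKM in Y and 0.0330 to 0.0409 RPKM in SX. Calls are given below with and without this factor. The SX libraries were read on 1 lane of another sequencer model than the Y libraries, and sequencer, lane and group cannot be told apart. The C4 libraries shared lanes with Y and are given beside SX. Within SX, replicate 1 stood apart. Over 6744 transcripts of at least 10 RPKM its correlation with the others was 0.803 to 0.825, against 0.956 to 0.971 among replicates 2 to 4, and 221 transcripts were at least 5-fold below the median of the other SX libraries in it, against 27 to 41 in replicates 2 to 4. Results were recomputed without it. Within Y, replicates 1 and 3 (r = 0.981) and replicates 2 and 4 (r = 0.946) were closer to each other than across these pairs (0.899 to 0.915, 4643 transcripts).

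The RNA of yolk was concentrated in few transcripts. The 100 leading transcripts of each library held 80.8 ± 2.42% of its reads in Y and 21.5 ± 1.44% in SX (SD, n = 4 each), 77.9 to 83.5% against 20.1 to 23.5% in single libraries. The difference of 59.3 percentage points had p = 0.0286 in a two-sided exact permutation test, the smallest value that 70 splits of 8 libraries allow. A read was found for 13316 ± 873 transcripts in Y and 30565 ± 264 in SX (p = 0.0286 by the same exact permutation test). Thinning every library to 9543632 reads left 12901 ± 635 transcripts in Y and 29494 ± 269 in SX.

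Between yolk and SX, 1355 of 25900 transcripts (5.23%) were called higher in Y and 9588 (37.0%) higher in SX, at an adjusted p below 0.05 by limma, a difference of at least 5-fold and, in the higher group, a mean no lower than 1 RPKM. The 1355 transcripts took 89.4 to 92.1% of the reads of a Y library, 13.9 to 17.5% of an SX library and 16.0 to 18.0% of a C4 library. The 9588 transcripts took 0.137 to 0.242% of Y reads and 41.9 to 44.9% of SX reads. In 1332 of the 1355 and in 9425 of the 9588 the values of the 4 Y and the 4 SX libraries did not overlap, where all Y values lay above all SX values for 13.3% of the transcripts tested and below them for 63.9%. Of those higher in SX, 3751 had no read in any Y library, and of those higher in Y, 13 had none in any SX library. The median difference was 3.33 among calls higher in Y and -4.44 among calls higher in SX.

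**Figure D1:**
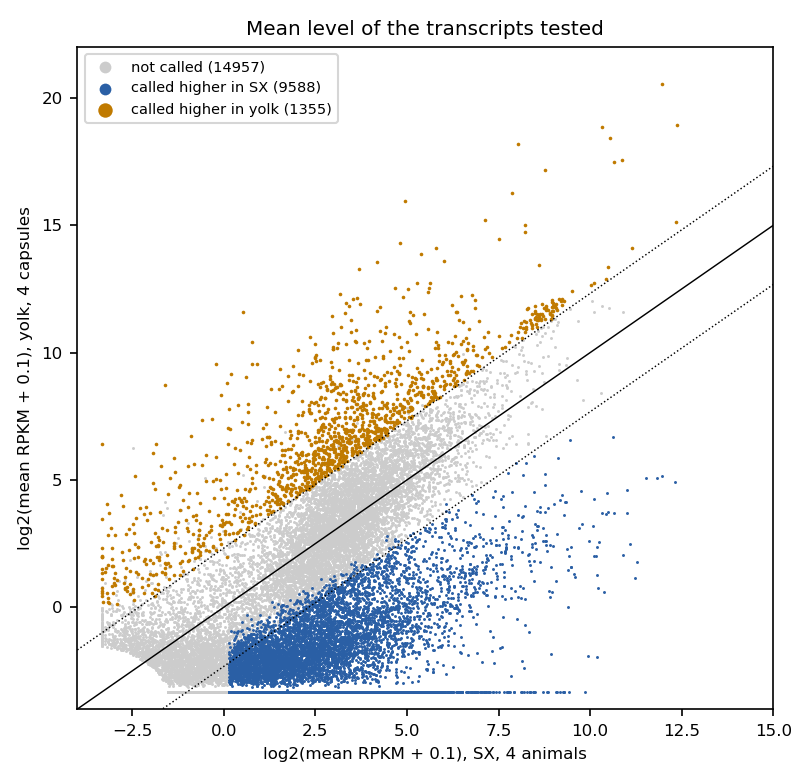
Log2 of the mean RPKM + 0.1 in yolk (vertical axis) against the same in sexual adults (horizontal axis), 1 point per transcript tested, with calls higher in Y in orange, calls higher in SX in blue and the others in grey. The solid line marks equal levels and the dotted lines 5-fold differences. The 1355 orange points reach 1526531 RPKM in Y, while the 9588 blue points include a row at the floor, the 3751 transcripts without a read in any Y library.

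The share of these calls that were higher in Y, 12.4%, depended on the scaling. Without the TMM factor 243 transcripts (0.938%) were called higher in Y and 17038 (65.8%) higher in SX, which puts 1.41% of the calls on the Y side. After quantile normalization 2201 (8.50%) were higher in Y and 4463 (17.2%) higher in SX, or 33.0% on the Y side. The median difference over all 25900 transcripts was -2.27, against -3.60 without the factor and -0.31 after quantile normalization. Transcripts without a read in 1 group were also set to a floor of 3 reads over its libraries. With those not above the floor left out, the median on the deposited scale was -1.52. All 9588 transcripts higher in SX kept that call without the factor, and 4425 kept it after quantile normalization. Of the 1355 higher in Y, 243 kept their call without the factor, 1137 after quantile normalization, 238 under both and 1297 without SX replicate 1. Without that library 1316 transcripts in all were called higher in Y and 9449 higher in SX.

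The leading transcripts of yolk were the sharpest contrast in RPKM. The 8 with the highest mean in Y held 60.8 to 67.5% of the reads of a Y library and 0.0121, 1.33, 2.21 and 4.43% of the reads in SX replicates 1 to 4. None of the 8 has a name or a description in the study's tables, so no role can be given for them. SMED30030028 alone was read at 1347560, 1954032, 1204456 and 1600074 RPKM in Y replicates 1 to 4, values beyond the usual range of the unit because they carry the small TMM factor. In SX it was read at 0.833, 2267, 4340 and 9391 RPKM. Its median rank was 1 in the Y libraries and 6 in the SX libraries, and its difference was 11.44 (standard error 2.71, adjusted p = 0.0044 by limma) and 8.38 without SX replicate 1. Replicate 1 of SX had almost none of it, while replicates 2 to 4 held it among their most abundant transcripts.

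The same order of SX libraries was found in all 8 leading transcripts, with replicate 1 lowest and replicate 4 highest. SMED30002956 was read at 416663, 572141, 323725 and 687336 RPKM in Y and at 144, 3482, 6224 and 11385 RPKM in SX, a difference of 7.62 (standard error 1.25, adjusted p = 0.00056 by limma) that was 6.26 without SX replicate 1. SMED30022321 was read at 423266, 573661, 382678 and 542617 RPKM in Y and at 0.353, 767, 1367 and 2960 RPKM in SX, a difference of 11.26 that was 8.34 without SX replicate 1. No group overlapped with the other in either transcript. Replicate 1 of SX again lay far below replicates 2 to 4.

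SMED30033681, with the largest difference of all called transcripts without overlap, was read at 289174, 361548, 226443 and 305872 RPKM in Y and at 0, 18.9, 248 and 781 RPKM in SX. Its difference was 13.53 (standard error 2.52, adjusted p = 0.0012 by limma), and 10.88 without SX replicate 1. SMED30033800, also without a description, was read at 106816, 24540, 79914 and 40518 RPKM in Y and at 5.99, 7.26, 21.3 and 88.1 RPKM in SX, a difference of 11.63 (standard error 0.88, adjusted p = 5.2e-06 by limma). The remaining 4 leaders, SMED30000628, SMED30014063, SMED30017045 and SMED30013255, had means of 148120 to 348667 RPKM in Y, means of 439 to 1864 RPKM in SX and differences of 8.69 to 10.64, which were 6.47 to 8.24 without SX replicate 1. After quantile normalization 4 of the 8 were not called, namely SMED30030028, SMED30002956, SMED30014063 and SMED30017045, with differences of 6.88, 1.72, 5.60 and 6.82.

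**Figure D2:**
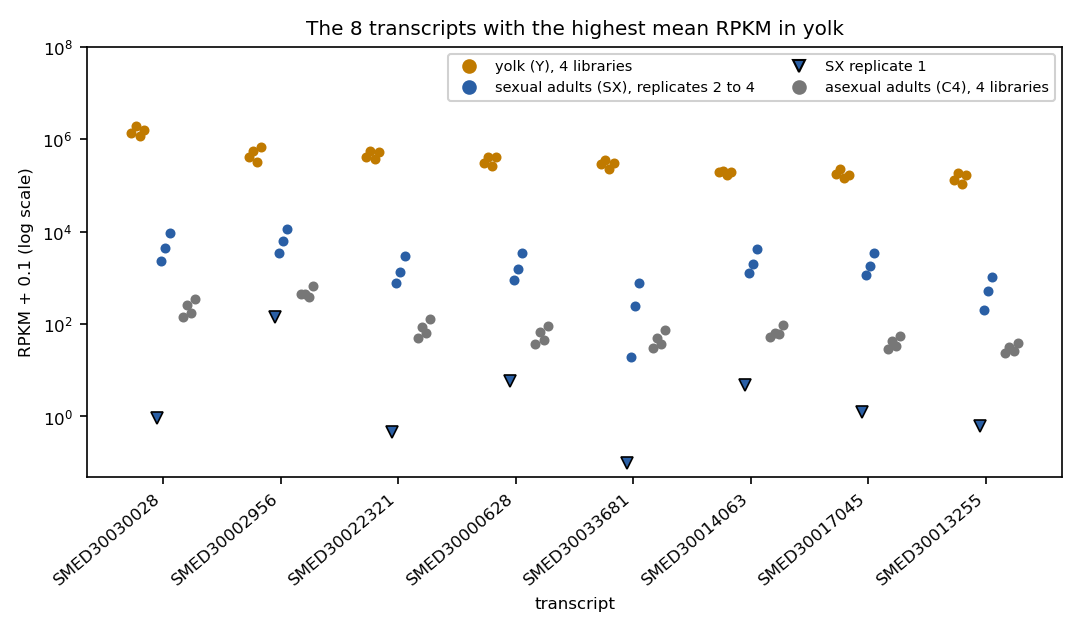
RPKM + 0.1 on a log axis for the 8 transcripts with the highest mean in yolk, 1 point per library: yolk in orange, sexual adults in blue with replicate 1 as a triangle, asexual adults in grey. In each transcript the 4 yolk points lie above all others, and SX replicate 1 lies below the other 3 SX points and below the 4 C4 points.

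In C4 animals, which lay no capsules, the 8 leading transcripts held 0.0736 to 0.168% of the reads, more than in SX replicate 1 and less than in SX replicates 2 to 4. Set against the Y library of the same replicate number, single C4 libraries held them at 0.0105 to 0.121% of the Y level, with a median of 0.0202%. That libraries of equal number shared a lane is an assumption, since the study states only that each lane held 1 replicate per group. The C4 libraries shared lanes with the Y libraries and the SX libraries did not, and the part of reads assigned to a wrong library of the same lane was not tested.

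Of the 2405 tested transcripts with a name or description, 39 (1.62%) were higher in Y and 1833 (76.2%) higher in SX. Names and descriptions come from the study's tables of embryo, neoblast and tissue transcripts, so they are a selected set. The counts of the lists below are to be read against these shares. The embryo tables were chosen on samples that include Y. In comparing each stage with the average of the others, the study left out early transcripts that were also raised in yolk. The share of annotated transcripts higher in Y, and the counts of key word lists, are thus no independent evidence of a direction. The 39 included regulators of mitosis, subunits of ribonucleotide reductase, transcription factors and factors of translation.

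Transcripts of 3 mitotic regulators were 20.7- to 26.4-fold more abundant in Y than in SX by mean RPKM, while the B cyclins described next were lower. Polo-like kinase 1 (SMED30025780), which drives entry into mitosis and spindle assembly, was read at 493, 589.8, 438 and 359 RPKM in Y and at 18.8, 23.0, 24.5 and 24.6 RPKM in SX. All Y libraries lay far above all SX libraries, with a difference of 4.35 (standard error 0.17, adjusted p = 1.3e-07 by limma). aurora kinase-1 (SMED30015999), of the kinase family that acts in chromosome alignment and cytokinesis, was read at 189, 233, 247 and 351 RPKM in Y and at 9.66, 11.1, 12.9 and 15.3 RPKM in SX, a difference of 4.36 (standard error 0.22, adjusted p = 4.3e-07 by limma). The regulatory subunit 2 of cyclin-dependent kinases (SMED30015678) was read at 503, 99.6, 422 and 295 RPKM in Y and at 14.6, 11.2, 11.8 and 12.3 RPKM in SX, a difference of 4.49 (standard error 0.47, adjusted p = 3.8e-05 by limma). In all 3, the groups did not overlap. Against C4, with which Y shared lanes, the differences were 5.35, 5.96 and 5.61, in the same order.

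The cyclins of the same phase were not higher in Y. cyclin B-2 (SMED30005246), which activates the mitotic kinase CDK1, was read at 0.367, 0.275, 0.145 and 0.797 RPKM in Y, on 1 to 4 reads a library, and at 14.2, 16.2, 17.7 and 14.7 RPKM in SX, a difference of -5.15 (standard error 0.38, adjusted p = 4.6e-06 by limma). cyclin B-1 (SMED30014394), named after its values were seen, averaged 0.402 ± 0.338 RPKM in Y and 8.93 ± 0.935 RPKM in SX (SD, n = 4 each). After quantile normalization cyclin B-2 was still called lower in Y (-2.49), while cyclin B-1 was not called (-1.99).

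Ribonucleotide reductase makes the deoxynucleotides for DNA synthesis. Its large subunit (SMED30029973) was read at 672, 570.0, 609 and 553 RPKM in Y and at 45.8, 38.4, 38.6 and 38.2 RPKM in SX, a difference of 3.90 (standard error 0.11, adjusted p = 7.4e-08 by limma). A small subunit (SMED30026659, outside the rule for named transcripts and chosen after its values were seen) was higher in Y by 2.73, with means of 203 and 30.3 RPKM. A second small subunit, RRM2-2 (SMED30010115), was read at 145, 99.5, 141 and 92.2 RPKM in Y and at 33.1, 25.9, 35.0 and 30.3 RPKM in SX. All 4 Y values lay above all 4 SX values, but the difference of 1.92 (standard error 0.19, adjusted p = 2.3e-05 by limma) stayed below the 5-fold limit. Without the TMM factor the difference of RRM2-2 was -0.98. Factors of the replication fork were lower in Y on the deposited scale. PCNA (SMED30004304), the sliding clamp of DNA polymerases, was read at 0.381, 7.41, 0.602 and 3.31 RPKM in Y and at 45.8, 28.7, 29.7 and 26.2 RPKM in SX, a difference of -4.22 (standard error 0.84, adjusted p = 0.0018 by limma). MCM2 (SMED30006979), a subunit of the replicative helicase, averaged 0.934 ± 0.454 RPKM in Y and 8.69 ± 1.33 RPKM in SX, with a difference of -3.19, and a subunit of DNA polymerase epsilon (SMED30031663) 0.0519 ± 0.104 and 9.11 ± 2.28 RPKM (SD, n = 4 each). After quantile normalization PCNA (-2.86) and the polymerase subunit (-3.97) were still called lower in Y, while MCM2 at -0.68 was not called.

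Of the 34 tested transcripts described as acting in DNA replication and mitosis, 3 were higher in Y, 18 higher in SX and 13 not called, with a median difference of -3.03. Their RPKM values nevertheless summed to 1145 to 1288 in Y libraries and 292 to 338 in SX libraries, of which the 3 higher in Y, aurora kinase-1 and the reductase subunits SMED30029973 and SMED30026659, made up means of 255, 601 and 203 RPKM in Y. After quantile normalization 2 were higher in Y and 4 higher in SX. The differences of the mitotic and reductase transcripts did not reach 5-fold without the TMM factor (1.44 for polo-like kinase 1, 1.45 for aurora kinase-1, 1.59 for the kinase subunit and 0.99 for the reductase), and after quantile normalization they were called again (3.81, 4.30, 4.42 and 3.07). Ranks within a library do not use the factor, but they run over 13316 transcripts with a read in Y and 30565 in SX, so they are given as a description. The median rank of polo-like kinase 1 was 370 in Y and 2948 in SX, that of aurora kinase-1 585 and 5859, that of the kinase subunit 449 and 5876, and that of the reductase 310 and 1744.

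Among transcription factors, 4 named transcripts were higher in Y. abdBa (SMED30015704), a Hox gene of the Abdominal-B group, was read at 647, 593, 687 and 338 RPKM in Y and at 2.03, 3.29, 4.27 and 6.71 RPKM in SX, a difference of 7.16 (standard error 0.38, adjusted p = 5.8e-07 by limma). It kept its call without the TMM factor, with a difference of 4.27, and its mean in C4 was 3.62 RPKM. The zinc finger gene sp5 (SMED30033839), a gene of the Sp family, was read at 539.9, 539.9, 416 and 451 RPKM in Y and at 7.09, 17.9, 23.1 and 28.6 RPKM in SX, a difference of 4.82 (standard error 0.40, adjusted p = 9.1e-06 by limma). Neither gene overlapped between the groups, and both are members of the zeta class in the study's tables.

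hnf-4 and gata456a, which mark gamma neoblasts and gut, were also higher in Y. hnf-4 (SMED30005748), a nuclear receptor, was read at 177, 223, 182 and 167 RPKM in Y and at 20.1, 22.6, 26.8 and 25.9 RPKM in SX, a difference of 2.97 (standard error 0.14, adjusted p = 2.5e-07 by limma). gata456a (SMED30007290), a GATA factor, was read at 168, 123, 219 and 215 RPKM in Y and at 18.0, 28.5, 43.4 and 51.1 RPKM in SX, a difference of 2.43 (standard error 0.35, adjusted p = 0.00025 by limma). At 2.15 without SX replicate 1 it no longer reached 5-fold. The scaling decided the direction of gata456a, which was -0.47 without the TMM factor, and left hnf-4 at 0.06. The median rank of hnf-4 was 730 in Y and 2844 in SX, and that of gata456a 701 and 1987. Other gut regulators lay on the opposite side. nkx2.2 (SMED30011793), a homeobox gene of the gut lineage, was read at 0.538, 0, 0.709 and 0 RPKM in Y and at 21.7, 27.4, 29.2 and 26.1 RPKM in SX, a difference of -6.60 (standard error 0.74, adjusted p = 5.9e-05 by limma). prox-1 (SMED30016901) had no read in Y and averaged 1.29 ± 0.160 RPKM in SX (SD, n = 4), which is at least 7.53-fold higher against a floor of 3 reads over the 4 Y libraries.

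The largest difference toward Y among described transcripts was that of synaptotagmin-15 (SMED30035718), of a family of calcium-sensing proteins of membrane traffic. It was read at 1093, 1369, 956 and 1206 RPKM in Y and at 1.04, 6.62, 9.87 and 16.2 RPKM in SX, a difference of 7.59 (standard error 0.74, adjusted p = 2.5e-05 by limma). Its order among the SX libraries was the same as in the 8 leading transcripts. A homolog of peroxidasin (SMED30026652), a heme peroxidase of the extracellular matrix, was read at 13.7, 29.5, 9.32 and 6.83 RPKM in Y and at 0.0101, 0.0250, 0.139 and 0.248 RPKM in SX, a difference of 6.12 (standard error 0.55, adjusted p = 1.5e-05 by limma). A transcript described as the E3 ubiquitin ligase ICP0 (SMED30019564) was read at 2.75, 18.3, 3.11 and 3.85 RPKM in Y and in SX only in replicate 1, at 0.0458 RPKM. These 3 and abdBa were the only annotated transcripts higher in Y under the deposited scaling, without the TMM factor and after quantile normalization. Against C4 the differences were 10.18 for synaptotagmin-15, 7.21 for abdBa, 6.65 for the peroxidasin homolog and 2.73 for ICP0. In S2 embryos the peroxidasin homolog and ICP0 averaged 106 and 786 RPKM, above their means in Y of 14.8 and 7.00 RPKM. The S2 means of synaptotagmin-15 and abdBa, 576 and 286 RPKM, were below their means in Y of 1156 and 566 RPKM.

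Several described transcripts were higher in Y on few reads. An eIF4A helicase (SMED30011137), which unwinds mRNA for translation, averaged 7.35 ± 4.38 RPKM in Y on 11 to 31 reads a library and 0.174 ± 0.0754 RPKM in SX. An innexin (SMED30002918), a gap junction protein, was read at 6.02, 16.6, 3.05 and 22.3 RPKM in Y and averaged 0.458 ± 0.262 RPKM in SX. gelsolin-like (SMED30014940) averaged 2.82 ± 2.04 RPKM on 2 to 6 reads a library in Y and 0.0559 ± 0.0710 RPKM in SX (SD, n = 4 each). Such transcripts often belong to families of near-identical copies, reads with up to 5 matches were kept, and their division between copies is uncertain. In S2 embryos the eIF4A helicase, the innexin and gelsolin-like averaged 1307, 145 and 193 RPKM, above their means in Y. Of the 25 tested transcripts of translation, 6 were higher in Y, 6 higher in SX and 13 not called, with a median difference of 0.90. After quantile normalization these were 12 and 2, and without the TMM factor 0 and 9, while 4 were higher in Y without SX replicate 1.

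On the deposited scale, neoblast markers differed among themselves in yolk, from RRM2-2, above the level of whole adults, over piwi-1, near it, to markers with hardly a read. piwi-1 (SMED30007406), an Argonaute protein of the piRNA pathway, was read at 57.8, 175, 52.0 and 176 RPKM in Y, on 457 to 1282 reads a library, and at 121, 77.3, 91.8 and 68.9 RPKM in SX. The groups overlapped, and the difference of 0.16 (standard error 0.46, adjusted p = 0.75 by limma) turned to -2.74 without the TMM factor. piwi-2 (SMED30014446), of the same family, was read at 30.7, 37.6, 28.1 and 54.1 RPKM in Y and at 112, 91.1, 95.8 and 89.1 RPKM in SX, and piwi-3 (SMED30001362) averaged 36.7 ± 2.79 and 83.3 ± 14.0 RPKM (SD, n = 4 each). Their differences of -1.41 and -1.17 were lower without overlap but under 5-fold. vasa-1 (SMED30031463), a germ granule helicase, averaged 21.9 ± 3.67 RPKM in Y and 35.3 ± 4.52 RPKM in SX, and bruno-like (SMED30023062), an RNA-binding protein, 14.0 ± 4.84 and 34.3 ± 7.36 RPKM. Without the TMM factor piwi-2, piwi-3, vasa-1 and bruno-like were called lower in Y (-4.30, -4.07, -3.58 and -4.20), and RRM2-2 turned to -0.98. The median rank of piwi-1 was 1197 in Y and 762 in SX, that of piwi-2 2289 and 676, and that of vasa-1 3210 and 2022.

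The neoblast and germ cell markers at the other end had few or no reads in Y. h2a.z (SMED30030543), a histone variant, was read at 0, 4.89, 2.07 and 2.13 RPKM in Y and at 52.7, 29.0, 31.9 and 30.2 RPKM in SX, a difference of -4.81 (standard error 1.11, adjusted p = 0.0039 by limma). nanos (SMED30034750), a translational repressor of germ cells, had no read in Y and averaged 5.60 ± 2.34 RPKM in SX (SD, n = 4), at least 16.5-fold higher against the floor of 3 reads.

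**Figure D3:**
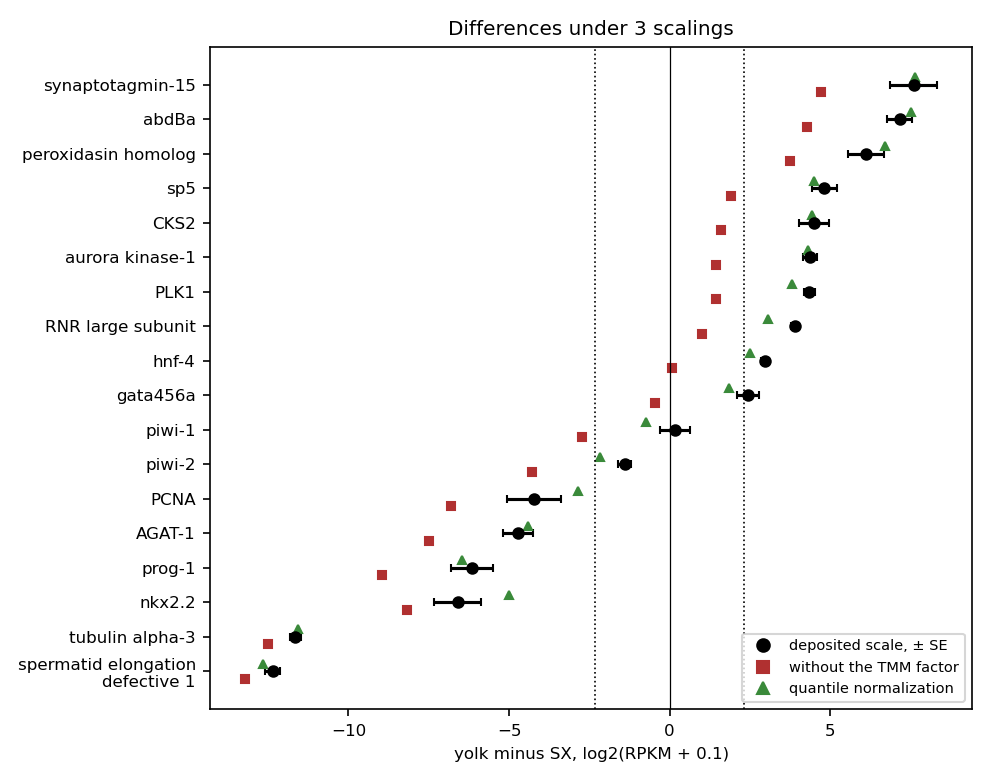
Difference of log2(RPKM + 0.1), yolk minus sexual adults (horizontal axis), for 18 named transcripts, on the deposited scale with its standard error (black), without the TMM factor (red squares) and after quantile normalization (green triangles), with dotted lines at 5-fold. synaptotagmin-15, abdBa and the peroxidasin homolog stay above 5-fold on all 3 scales, while hnf-4, gata456a and piwi-1 move to 0.06, -0.47 and -2.74 without the factor.

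Of the 241 tested transcripts that the study listed as neoblast-enriched, 13 were higher in Y (5.39%, against 5.23% of all transcripts and 1.62% of annotated ones), 144 were higher in SX (59.8%, against 37.0% and 76.2%) and 84 were not called. Their median difference was -3.28, while their RPKM values summed to 4072 to 4520 in Y libraries and 3628 to 4418 in SX libraries. After quantile normalization 21 were higher in Y and 45 higher in SX. Of the neoblast classes, the zeta class had 4 of 51 higher in Y and 36 higher in SX, the gamma class 5 and 26 of 45, and the sigma class 1 and 50 of 75. After quantile normalization the counts were 5 and 16 for zeta, 2 and 18 for gamma and 2 and 16 for sigma. Of the early embryo list (cluster 5), 19 of 345 were higher in Y and 229 higher in SX, after quantile normalization 44 and 106. The early embryo list was chosen in the study on samples that include Y, so its count is no independent evidence of a direction, while the neoblast lists come from adult animals and cells.

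**Figure D4:**
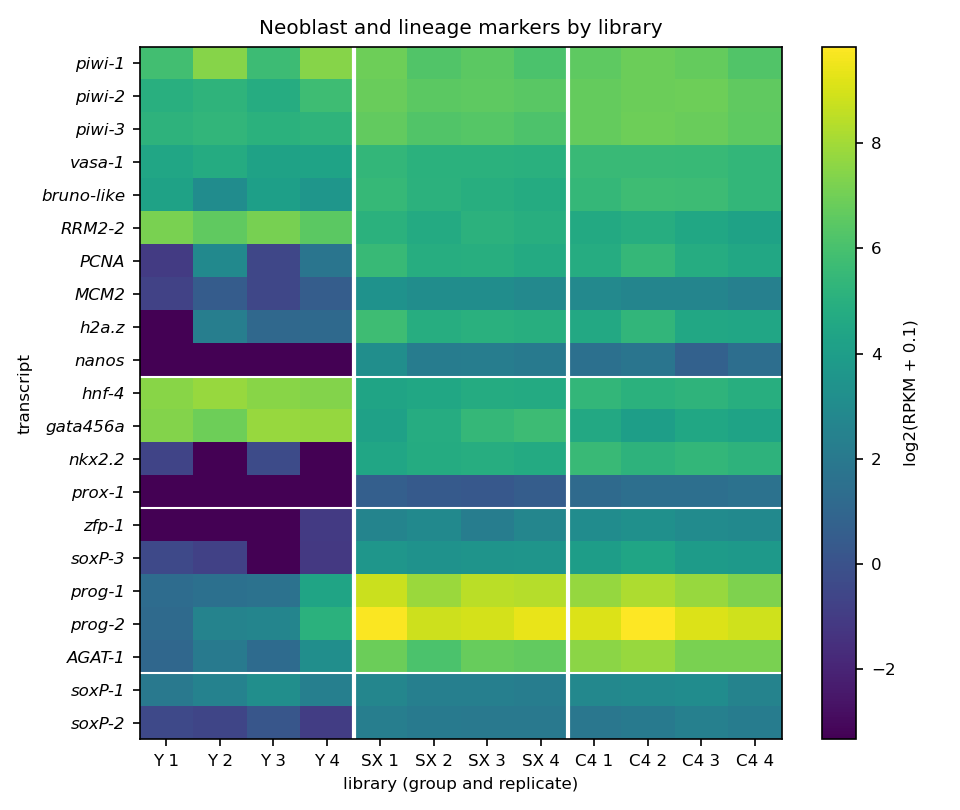
Heat map of log2(RPKM + 0.1) for neoblast markers and markers of gut, epidermal and sigma lineages (rows) in each yolk, sexual adult and asexual adult library (columns), lighter for higher. piwi-1 is as light in Y replicates 2 and 4 as in adults, hnf-4 and gata456a are lighter in Y, and nanos and prox-1 are at the floor in all 4 Y libraries.

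All 6 markers followed for zeta neoblasts and the epidermal lineage were lower in Y, as was fgfr1, given below. prog-1 (SMED30035904) was read at 2.37, 2.84, 3.00 and 20.1 RPKM in Y and at 443, 229, 354 and 333 RPKM in SX, a difference of -6.16 (standard error 0.65, adjusted p = 4e-05 by limma). prog-2 (SMED30002134) averaged 12.1 ± 14.8 and 625 ± 189 RPKM, and AGAT-1 (SMED30018353), an amidinotransferase homolog of later epidermal progenitors, 4.35 ± 3.27 and 99.3 ± 20.7 RPKM (SD, n = 4 each). In all 3, Y replicate 4 was the highest of the Y libraries. The earlier regulators zfp-1 (SMED30023708) and soxP-3 (SMED30008505) averaged 0.0906 and 0.376 RPKM in Y, on 0 to 2 reads a library, and 6.14 and 11.2 RPKM in SX, with differences of -5.39 and -4.90. The sigma marker soxP-1 (SMED30019097) was read at 3.89, 5.50, 9.07 and 4.94 RPKM in Y and at 6.41, 5.01, 4.94 and 4.58 RPKM in SX. The groups overlapped, and the difference of 0.10 (adjusted p = 0.74 by limma) was -2.71 without the TMM factor. fgfr1 (SMED30034490), which the study places in the zeta class, and the sigma marker fgfr4 (SMED30009204) encode receptors for fibroblast growth factors. Both were called lower in Y, with differences of -4.72 and -3.38. Of the remaining sigma markers, soxP-2 (SMED30035063) was called lower at -2.52, while inx13 (SMED30023483) at -0.89 was not called. None of these 4 was called after quantile normalization, with differences of -2.31, -0.09, 0.40 and 0.99.

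Transcripts with an adult tissue flag were called on the SX side or not at all, unlike hnf-4 and gata456a, which were called higher in Y. Of the transcripts that the study flagged by tissue, 62 of 64 for gut, 21 of 22 for epidermis, 29 of 37 for eye, 18 of 26 for the nervous system, 10 of 11 for muscle and 6 of 6 for protonephridia, the excretory organs, were higher in SX, and 0 of each were higher in Y. The share over all tested transcripts was 37.0% and over annotated ones 76.2%, so the share for eye (78.4%) lay near that of annotated transcripts and the share for the nervous system (69.2%) below it. After quantile normalization 46, 16, 8, 6, 2 and 2 of the same lists were higher in SX. Against C4, where 1277 of 23721 transcripts (5.38%) were higher in Y and 7657 (32.3%) higher in C4, all 64 gut, 22 epidermis, 36 of 37 eye, 26 of 26 pan-neural, 11 of 11 muscle and 6 of 6 protonephridia transcripts were higher in C4. Both comparisons share the Y libraries. The study gave these tissue flags in its tables of transcripts enriched at later embryonic stages, chosen on samples that include Y. A low level in Y could thus enter the choice, and the counts are no independent evidence of a direction.

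**Figure D5:**
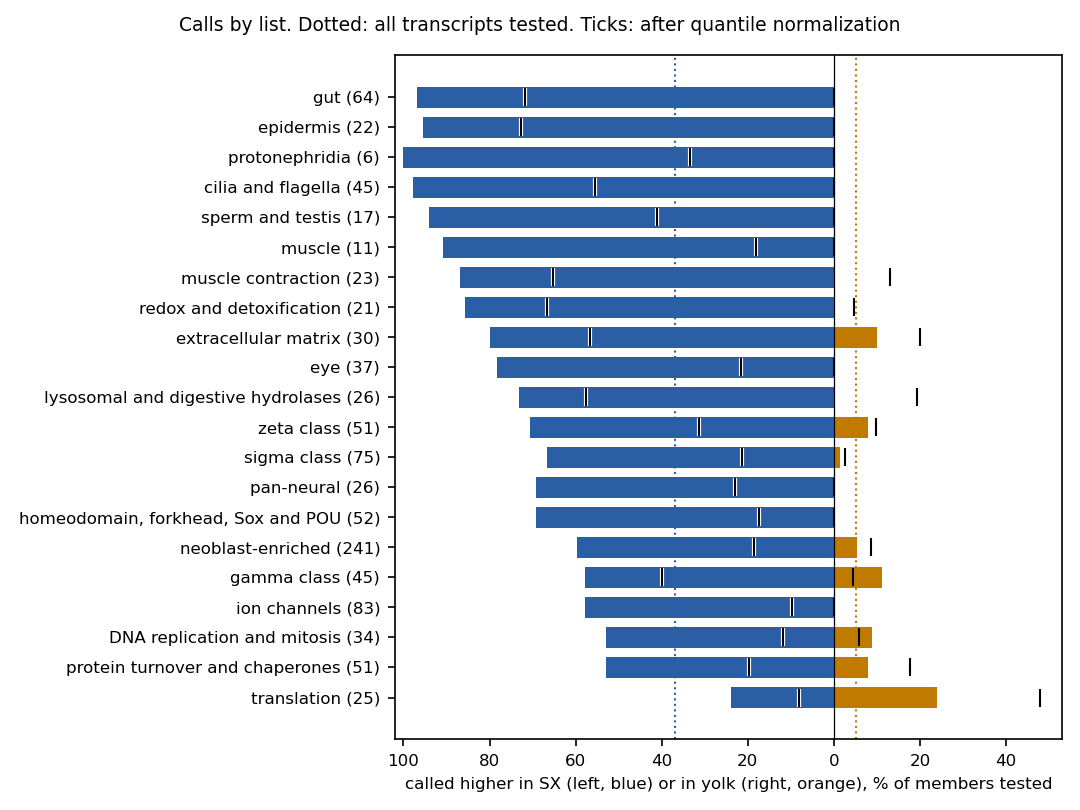
Percentage of the tested members of each list (number in brackets) called higher in SX (blue, to the left) or in yolk (orange, to the right), with dotted lines for all transcripts tested (37.0% and 5.23%) and ticks for the percentages after quantile normalization. Gut, epidermis and cilia lie beyond 90% on the SX side, and translation has the longest orange bar, 24.0%.

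The largest differences toward SX among annotated transcripts included that of the male germ cell gene used above as a check. The 4 Y libraries held no read of spermatid elongation defective 1, which averaged 543 ± 152 RPKM in SX (SD, n = 4), at least 1765-fold higher against the floor of 3 reads (difference -12.36, adjusted p = 4.9e-08 by limma). A tubulin alpha-3 chain (SMED30002688), a microtubule subunit, also had no read in Y and was read at 247, 352, 378 and 324 RPKM in SX and at a mean of 1.20 RPKM in C4, at least 1814-fold higher in SX than the floor. A transcript described as myosin light chain kinase (SMED30011307) was read at 1.14, 0, 0 and 2.47 RPKM in Y and at 456, 786, 481 and 976 RPKM in SX, a difference of -10.57 (standard error 1.10, adjusted p = 3.5e-05 by limma), with a mean of 3.13 RPKM in C4. These 3 were thus abundant in SX and scarce in both Y and C4.

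The 2 transcripts without a description that had the largest differences toward SX were also scarce in C4. SMED30008925 had no read in Y and was read at 137, 1469, 1113 and 980.2 RPKM in SX, a difference of -12.74 (standard error 0.69, adjusted p = 7e-07 by limma). SMED30006104 was read in Y on 1 read, in replicate 3, and at 615, 1517, 1421 and 1138 RPKM in SX, a difference of -12.72. SX replicate 1 was the lowest in both, and their means in C4 were 0.282 and 0 RPKM. Of the 17 tested transcripts described as acting in sperm or testis, 16 were higher in SX, and of the 45 of cilia and flagella, 44 were, with a median difference of -4.86. After quantile normalization 7 and 25 were. The same lists were as one-sided against asexual C4 animals, with 16 of 17 and 45 of 45 higher in C4. Tektin-1 (SMED30027478), a filament protein of the axoneme, was read at 0.510, 0, 0 and 0.277 RPKM in Y and at 30.8, 42.6, 43.1 and 41.5 RPKM in SX. It averaged 30.0 RPKM in C4, so it was abundant in both kinds of adult.

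Digestive and secreted proteins of the adult were absent or scarce in Y. The ganglioside GM2 activator (SMED30007906), a lysosomal lipid-binding protein, was read at 0, 0, 0.430 and 1.18 RPKM in Y and at 375, 241, 349 and 333 RPKM in SX, a difference of -10.12 (standard error 0.82, adjusted p = 7.6e-06 by limma). Gastric triacylglycerol lipase (SMED30003335), which cleaves dietary fat, averaged 1.27 ± 0.606 RPKM in Y and 170.3 ± 37.6 RPKM in SX, and apolipophorin (SMED30020296), a lipid carrier, 3.48 ± 2.28 and 148 ± 50.3 RPKM (SD, n = 4 each). A cathepsin L1 transcript (SMED30013826), a lysosomal protease, had no read in Y and was read at 10.9, 13.6, 10.2 and 13.3 RPKM in SX, at least 51.7-fold higher. Of the 26 tested lysosomal and digestive hydrolases, 19 were higher in SX and 0 higher in Y, with a median difference of -5.77, after quantile normalization 15 and 5. Their share, 73.1%, was below the 76.2% of annotated transcripts. Of 10 transcripts of lipid, iron and yolk protein, 9 were higher in SX. The ferritins (SMED30027587 and SMED30017554), which store iron, were in that list, at 0.529 and 3.18 RPKM in Y and 26.6 and 105 RPKM in SX.

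Lectins and protease inhibitors stood beside them. Collectin-43 (SMED30003676), a sugar-binding protein, was read at 5.46, 4.54, 0.480 and 2.64 RPKM in Y and at 1218, 1282, 3363 and 4065 RPKM in SX, a difference of -9.73 (standard error 0.77, adjusted p = 6.4e-06 by limma). A transcript described as macrophage mannose receptor (SMED30007501) was read at 4.74, 4.14, 2.19 and 11.2 RPKM in Y and at 1028, 1455, 2679 and 3583 RPKM in SX, a difference of -8.66. Their means in C4 were 33.2 and 3.69 RPKM. A Kunitz-type protease inhibitor (SMED30020210), in contrast, averaged 706 ± 109 RPKM in SX (SD, n = 4) and 639 RPKM in C4, against 2.90 ± 2.74 RPKM in Y, and belongs to a family in which reads can be shared.

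Structural proteins of muscle and matrix made up a further group. Titin (SMED30008578), the spring of the sarcomere, averaged 0.687 ± 0.416 RPKM in Y and 46.3 ± 4.76 RPKM in SX, and a myosin essential light chain (SMED30026887) 8.48 ± 3.44 and 417 ± 79.9 RPKM (SD, n = 4 each). Nidogen-2 (SMED30028912), a basement membrane linker, was read at 8.22, 10.9, 9.03 and 9.93 RPKM in Y and at 1163, 731, 747 and 858 RPKM in SX, a difference of -6.49 (standard error 0.17, adjusted p = 7.4e-08 by limma). Of 23 tested transcripts of muscle contraction, 20 were higher in SX and 0 higher in Y, after quantile normalization 15 and 3. Of 30 of the extracellular matrix, 24 were higher in SX and 3 higher in Y, after quantile normalization 17 and 6, and without SX replicate 1 2 were higher in Y. The 3 were collagen alpha-1(IV) (SMED30001128) at a mean of 1.05 RPKM in Y and 2 transcripts described as perlecan (SMED30026563 and SMED30022419) at 3.16 and 2.98 RPKM, the last with overlap between the groups.

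Among neural transcripts, the single markers followed were scarce in SX and scarcer in Y, while a wider list of neural receptors and peptides summed higher in Y. coe (SMED30005164), a neural transcription factor, had no read in Y and averaged 1.20 ± 0.398 RPKM in SX (SD, n = 4), at least 8.83-fold higher. A myomodulin neuropeptide precursor (SMED30011959) was read in Y on 1 read, in replicate 1, and averaged 5.78 ± 0.724 RPKM in SX (SD, n = 4). The 12 markers of protonephridia, eye and nervous system that were followed, coe among them, had means of 0 to 0.266 RPKM in Y and of 0.569 to 3.13 RPKM in SX. The list of neural receptors and peptides summed to 963 to 1376 RPKM in Y libraries and 148 to 184 RPKM in SX libraries, of which synaptotagmin-15, its 1 member higher in Y, made up a mean of 1156 RPKM in Y. Of its 69 tested members 36 were higher in SX (52.2%), and of 83 ion channels 48 were (57.8%). Of 52 homeodomain, forkhead, Sox and POU factors 36 (69.2%) and of 46 cadherins and integrins 25 (54.3%) were higher in SX. These shares lay above the 37.0% of all tested transcripts and below the 76.2% of annotated ones. After quantile normalization 8, 8, 9 and 0 members of these lists were higher in SX. In that order 1, 0, 0 and 0 were higher in Y under the deposited scaling.

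Among other lists, 18 of 21 tested transcripts of redox and detoxification, 20 of 24 of the TRAF family of signaling adaptors and 27 of 51 of protein turnover and chaperones were higher in SX, after quantile normalization 14, 10 and 10. On the deposited scale the shares were 85.7, 83.3 and 52.9%, against 76.2% of annotated transcripts. Of 10 tubulins 6, of 7 histones 4 and of 6 small RNA and germ granule transcripts 1 were higher in SX, and 1, 1 and 0 higher in Y. Histones and tubulins are multigene families whose copies can share reads. Glutathione S-transferase (SMED30021545), a detoxifying enzyme, was among the 5 most abundant transcripts of SX. It was read at 4962, 3864, 3901 and 3244 RPKM in SX and at 18.3, 19.5, 56.8 and 45.9 RPKM in Y, a difference of -6.98 (standard error 0.39, adjusted p = 7.9e-07 by limma). SMED30007704, without a description and in the gamma class, was also among these 5. It was read at 4804, 5881, 5309 and 4936 RPKM in SX and at 33296, 42734, 33102 and 36032 RPKM in Y. Its difference of 2.79 (standard error 0.11, adjusted p = 1.2e-07 by limma) was -0.12 without the TMM factor and -4.12 after quantile normalization, and its median rank was 11 in Y and 2 in SX.

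Markers of the temporary tissues of the embryo were read at low levels in the capsules. netrin-like (SMED30023593), a guidance factor homolog, was read at 0, 3.42, 0 and 0.382 RPKM in Y, MPEG1-like-1 (SMED30000139), a perforin family homolog, at 0.326, 0.733, 0 and 0.177 RPKM, and CTSL-like (SMED30023322), a cathepsin L homolog, at 0.563, 11.8, 0.891 and 9.79 RPKM. Their means in S2 embryos were 20.0, 37.5 and 34.1 RPKM. gelsolin-like, at 2.82 RPKM in Y, averaged 193 ± 187 RPKM in S2 (SD, n = 4). In Y these 4 were highest in replicate 2. The other 3 markers did not share that order or rested on 1 read. spondin1-like (SMED30032088) was read at 0.194, 0, 0.154 and 0.211 RPKM, MPEG1-like-2 (SMED30034696) on 1 read in replicate 2, and LYAG-like (SMED30028442), a lysosomal glucosidase homolog, at 0, 0.175, 0 and 0.255 RPKM, the last called lower in Y than in SX (difference -2.95). LYAG-like had 1 and 2 reads in Y replicates 2 and 4, and after quantile normalization it was not called (-0.16).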

How the data were processed

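Per the labels and the study's methods, the authors mapped their reads (50 bases, 1 end) with Bowtie 1.0.0, allowing 2 mismatches and 5 matches, dropped rRNA and deposited RPKM values whose library size carries a TMM factor. All 40 columns matched a label, and 0 were left out. Multiplied by transcript length, 100% of values gave whole reads within 0.001 reads, and lengths so found equaled the study's for 3782 of 3782 transcripts. Depth and step sizes come from these reads.

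Differences were tested with limma 3.58.1 (lmFit, then eBayes with trend and robust) in R 4.3.3 on log2(RPKM + 0.1) over the 4 Y and 4 SX samples, and p-values were adjusted by Benjamini-Hochberg over 25900 transcripts. Adjusted p-values come from this fit. The fold and level limits (5-fold, 1 RPKM) are those of the study, whose stricter p limit was set for a test on counts. The same fit compared Y with C4. In simulated data for Y against SX, with 200 of 25900 transcripts changed, 98% of 8-fold and 100% of 32-fold changes were called, with 7 false calls. The simulation changed few transcripts, all above a level limit, with equal numbers in each direction. It gave all transcripts the same spread and took the TMM factors as exact. It therefore cannot show errors that come from the scaling.

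Named transcripts were, among calls without overlap, the 12 with a name or description and the 2 without either that had the largest difference in each direction, the 8 leading in Y and 5 in SX, up to 4 per list and fixed cell type markers. The 29 lists are tables and tissue flags of the study and key words in its descriptions. The members and lists were chosen with earlier results of these data known. Where all 4 libraries of a group lacked a transcript, its fold was taken against 3 reads in that group. The floor and the read steps cover counting error only.

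Results were recomputed without the TMM factor, with pseudocounts of 1 and 0.01 RPKM, with a stricter filter and none, with quantile normalization, voom on the rebuilt reads, sample weights, a fit over all 40 samples and a replicate block, at an adjusted p below 1e-05 and without each library in turn. Ranks within libraries and the fit against C4 were added after the data were seen. Python 3.11.15 with pandas 2.3.3 and matplotlib 3.10.9 made tables and figures.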

Additional observations from a re-analysis of the deposited data

Results flagged for a closer look

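In groups of 4 libraries, a library was singled out when its gap to the nearest of the others made up more of the whole range than Dixon's 95% critical value allows. This was met in 23 of 161 sets of 4 values of the transcripts named, where chance alone gives about 1 in 20 sets for independent, normally spread values. Many of the transcripts were named for their values, and all share the same libraries, and in 11 of the 23 sets the other 3 values were 0, so the count is no test. Of the 23, 10 were in SX replicate 1, which stood apart over all transcripts too.

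Below the other SX libraries, replicate 1 held the leading yolk transcripts SMED30030028 at 0.833, SMED30022321 at 0.353 and SMED30017045 at 1.14 RPKM, the SX transcript SMED30008925 at 137 RPKM and tektin-1 (SMED30027478) at 30.8 RPKM. Above them it held vasa-1 (SMED30031463) at 42.1, h2a.z (SMED30030543) at 52.7, the large subunit of ribonucleotide reductase (SMED30029973) at 45.8, a myosin essential light chain (SMED30026887) at 537 RPKM and ICP0 (SMED30019564) at 0.0458 RPKM, where the others had no read. In SX replicate 2 collagen alpha-1(IV) (SMED30001128) at 0.00614 RPKM and perlecan (SMED30022419) at 0.0835 RPKM were the only SX values above 0, as was spondin1-like (SMED30032088) at 0.0442 RPKM in SX replicate 3.

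In Y replicate 4, prog-1 (SMED30035904) was read at 20.1 RPKM and apolipophorin (SMED30020296) at 6.90 RPKM, above the other Y libraries. It was also the only Y library with a read of zfp-1 (SMED30023708, 0.363 RPKM), fgfr1 (SMED30034490, 0.165 RPKM), the DNA polymerase epsilon subunit (SMED30031663, 0.208 RPKM) and a ferritin (SMED30027587, 2.11 RPKM). In Y replicate 2 inx13 (SMED30023483) was read at 4.94 RPKM, above the other Y libraries, and MPEG1-like-2 (SMED30034696) at 0.257 RPKM, where the others had no read. Reads of SMED30006104 (0.635 RPKM) in Y were found in replicate 3 alone, and of the myomodulin precursor (SMED30011959, 0.863 RPKM) in replicate 1 alone.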

How the results depend on the processing

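The count of transcripts higher in Y was 1355 and moved by more than 1.5 times after quantile normalization (2201), without the TMM factor (243) and at an adjusted p below 1e-05 (864). The count higher in SX was 9588 and moved in the same way with a pseudocount of 1 RPKM (4501), after quantile normalization (4463), without the TMM factor (17038) and at an adjusted p below 1e-05 (4601). The median difference of -2.27 was -4.57 with a pseudocount of 0.01 RPKM, -0.70 with 1 RPKM, -0.31 after quantile normalization, -1.20 with voom and -3.60 without the TMM factor. The factor is a constant per library, so its removal moves nearly all differences toward SX. With each library left out, 1316 to 1383 transcripts were higher in Y and 9441 to 9651 higher in SX, the median difference was -2.31 to -2.24, the share of the 100 leading transcripts differed by 58.4 to 60.2 percentage points and the number of transcripts with a read by -17600 to -16990. Directions turned for several named transcripts. Without the TMM factor these included SMED30007704 (-0.12), piwi-1 (-2.74), gata456a (-0.47), soxP-1 (-2.71), RRM2-2 (-0.98) and CTSL-like (-1.08). After quantile normalization they included SMED30007704 (-4.12), soxP-2 (SMED30035063, 0.40), piwi-1 (-0.75), inx13 (0.99), sp6-9 (SMED30011934, 1.065) and pitx (SMED30009752, 0.67). The cause was not tested. Low transcripts are limited by depth, since 1 read in Y was worth up to 0.517 RPKM per kilobase.

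A replicate block, with replicate number as a term, gave 1356 transcripts higher in Y and 9592 higher in SX. Y and SX were sequenced on separate lanes, and no label ties a capsule to an adult of the same number, so the numbers are not taken to pair them.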

Other observations

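A dense group of transcripts stood out in the plot of mean levels. Of the 224 transcripts with a mean of 250 to 700 RPKM in SX, 80 had a difference between 2 and 3.5, and 0 of these 80 has a name or description. Their means in Y were 1176 to 4392 RPKM, their median difference 2.73 (2.06 to 3.42) and their median length 632.5 bases, against 1080 bases over all transcripts tested. Of the 80, 69 were called higher in Y. Without the TMM factor their median difference was -0.18 and 0 were called, and after quantile normalization it was 0.64 and 0 were called. Against C4 the median difference was 2.25. The group was chosen after its values were seen, and its source was not tested.

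The 221 transcripts that were at least 5-fold lower in SX replicate 1 than in the median of SX replicates 2 to 4 fell on both sides of the comparison. Of these, 75 were called higher in Y and 135 higher in SX, 4 have a name or description, and for 188 the mean in C4 was less than 0.2 times that in SX. Transcripts of male germ cells were read in this library, with spermatid elongation defective 1 (SMED30009122) at 328 RPKM against 556 to 681 RPKM in the others.

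The Y libraries differed among themselves in step with the pairs of replicates 1 and 3 and of replicates 2 and 4. piwi-1 (SMED30007406) was read at 57.8 and 52.0 RPKM in the first pair and at 175 and 176 RPKM in the second, PCNA (SMED30004304) at 0.381 and 0.602 against 7.41 and 3.31 RPKM, and CTSL-like (SMED30023322) at 0.563 and 0.891 against 11.8 and 9.79 RPKM. VAL-like (SMED30015313), another marker of temporary embryonic tissue, was read at 0, 19.4, 0.445 and 1.22 RPKM in Y replicates 1 to 4 and averaged 218 ± 261 RPKM in S2 embryos (SD, n = 4). These transcripts were picked after their values were seen.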
